A study of Mus musculus with 4 samples.

Results

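The let-7 family was examined as the 9 probes mmu-let-7a, mmu-let-7b, mmu-let-7c, mmu-let-7d, mmu-let-7e, mmu-let-7f, mmu-let-7g, mmu-let-7i and mmu-miR-98 (written without mmu- below) among the 566 mouse miRNA probes of the panel. The members were chosen by name, and all 9 were on the panel and passed the minimum for testing, a normalized count of 30 in at least 2 samples, as did 124 probes in all. Oncogenic epidermal cells (2 samples) came from adult R26stoprtTA/+ Col-tetO-YAPS127A/+ K14-Cre mice. In these mice the Cre recombinase, driven by a promoter of basal keratinocytes, permits doxycycline to switch on YAP S127A, a mutant of the coactivator YAP that escapes restraint by the Hippo pathway. Normal epidermal cells (2 samples) came from adult R26stoprtTA/+ Col-tetO-YAPS127A/+ mice, which carry the same alleles without Cre, so both groups carry the YAP transgene, and the normal group lacks the Cre that permits its induction. Both groups received 1 mg/ml doxycycline in the drinking water for 8 days. The cells were obtained by scraping back skin after trypsin treatment, and the titles of the oncogenic samples call them tumours although the condition label describes epidermal cells. The labels give 6 control animals and do not tie animals to samples, so the spread between samples may be technical. miRNAs were counted with the nanoString nCounter assay, in which each miRNA is hybridised to a colour-coded barcode and the barcodes are counted. The question was how the family's composition, that is each member's part of the summed let-7 signal within a sample, differs in oncogenic cells.

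let-7 miRNAs share a seed, the bases with which a miRNA recognises its targets, and in differentiated tissues they restrain growth and stem cell genes such as Hmga2, Lin28 and the Ras genes. The family is made from several loci, so its total can stay high while the loci contribute differently. The RNA-binding protein Lin28 blocks the maturation of let-7 precursors by binding their terminal loops.

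The mature sequences, from RefSeq (GRCm38.p6), are shown because the members differ by so few bases that their probes must tell near-identical targets apart. Capitals mark the seed, bases 2 to 8, which was GAGGUAG in all 9.
let-7a: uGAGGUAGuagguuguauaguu
let-7b: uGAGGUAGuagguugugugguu
let-7c: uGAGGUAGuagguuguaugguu
let-7d: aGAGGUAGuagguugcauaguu
let-7e: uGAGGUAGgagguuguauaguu
let-7f: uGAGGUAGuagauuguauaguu
let-7g: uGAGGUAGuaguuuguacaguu
let-7i: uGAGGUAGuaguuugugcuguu
miR-98: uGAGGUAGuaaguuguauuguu
Counted from the 5′ end, with the base of let-7a first, let-7c differed from let-7a by A19G, let-7e by U9G and let-7f by G12A. let-7b carried A17G and A19G, let-7d U1A and U16C, let-7g G12U and U18C, and miR-98 G11A and A19U. let-7i was the most distant from let-7a, with the 4 substitutions G12U, A17G, U18C and A19U. Probes for such close sequences may share signal, and the efficiency of each probe is unknown, so the shares below are shares of signal and not of molecules.

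The 9 members arise from 12 hairpins, placed here by matching each mature sequence to the RefSeq hairpins. On chromosome 13, minus strand, let-7d (chr13:48536078-48536099), let-7f (chr13:48537889-48537910) and let-7a (chr13:48538239-48538260) lie together. On chromosome 15, plus strand, let-7c (chr15:85706616-85706637) and let-7b (chr15:85707325-85707346) lie inside the lncRNA gene Lncppara. A further copy of let-7c lies beside Mir99a and Mir125b-2 on the plus strand (chr16:77599672-77599693), and a further copy of let-7a beside Mir100 and Mir125b-1 in Mir100hg, also on the plus strand (chr9:41536732-41536753). let-7e (chr17:17830366-17830387, plus strand) lies between Mir99b and Mir125a within Spaca6. let-7f has its other copy beside miR-98 inside Huwe1, at chrX:151912353-151912374 and chrX:151913229-151913250, plus strand. let-7g lies inside Wdr82 (chr9:106178846-106178867, plus strand), and let-7i (chr10:122985698-122985719, minus strand) has no other miRNA gene within 50 kb in the table. A probe for a mature miRNA cannot tell copies at different loci apart.

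The precursor loops, the bases between both mature arms, differ more than the mature sequences. GGAG, the motif of the Lin28 zinc knuckles, was searched on the RNA strand. It was present in 9 of the 12 let-7 loops and in 52 of 644 loops of mouse hairpins with both arms in the table (8.07%). The loops of the chromosome 15 pair, which hold no GGAG, are shown beside those of let-7i and let-7g, with the motif in capitals.
Mirlet7c-2: uugggcucugccccgcucugcgguaa
Mirlet7b: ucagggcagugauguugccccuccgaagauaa
Mirlet7i: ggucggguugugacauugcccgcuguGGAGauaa
Mirlet7g: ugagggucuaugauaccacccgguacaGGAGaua
The third loop without the motif was that of Mir98. The other hairpin of let-7c, Mirlet7c-1 on chromosome 16, does hold GGAG, and the let-7c probe cannot tell the copies apart. Lin28 was not measured on this panel.

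The recovered miRNA counts were 230284 and 53709 in the oncogenic samples and 189058 and 156092 in the normal samples, so oncogenic replicate 2 was the shallowest and results are also given without it. Its let-7 members rested on 8095 counts, against 21008 in oncogenic replicate 1 and 29210 and 27046 in the normal samples. Keratinocyte markers were abundant, with miR-205 and miR-203 summing with miR-184 to 35816 and 31320 normalized counts in oncogenic and 33516 and 50748 in normal cells, while miR-184 itself stayed between 4.39 and 12.3. A marker is called lower or higher where its groups did not overlap. Of the 3 keratinocyte markers, miR-203 was lower in oncogenic cells, at 9969 and 8229 against 10250 and 10451 in normal cells. miR-184, which fell short of the minimum for testing, was higher, at 7.86 and 12.3 against 4.39 and 6.03, and miR-205 overlapped. Among all tested miRNAs 51.6% did not overlap, 38.7% lower and 12.9% higher. All 3 red blood cell markers were lower in oncogenic cells, summing to 46.3 and 47.6 against 942 and 814. Both endothelial markers were lower, at 11.4 and 17.6 against 223 and 400. Of 2 melanocyte markers 1 was lower, with sums of 28.0 and 17.6 against 345 and 171, of 6 white blood cell markers 4 were lower and 1 higher (334 and 440 against 621 and 492), and of 5 fibroblast and smooth muscle markers 3 were lower (38.4 and 31.7 against 105 and 79.2). Of 3 neural markers 1, miR-138, was higher (59.4 and 35.2 against 27.2 and 11.2), and the list summed to 76.0 and 45.8 against 40.4 and 24.98. Of 3 muscle markers 1 was lower and 1 higher, with sums of 28.8 and 42.3 against 42.2 and 47.4. No marker was at 0 in any of these lists, but many fell short of the minimum for testing. It was reached by 2 of the red blood cell, 1 of the endothelial, 5 of the white blood cell and 1 of the melanocyte markers. Of the fibroblast and smooth muscle markers 1 reached it, of the neural markers 1 and of the muscle markers 0. The part of these other cell types in the let-7 composition was not tested. In bulk samples fewer cells of a type and less RNA per cell cannot be told apart.

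On the deposited scale, the normalized counts fell into a fixed top pair and a changing middle. let-7c, the most abundant member in every sample, stood at 4632 and 3801 in oncogenic cells, against 8469 and 8055 in normal cells. let-7b, its neighbour on chromosome 15 and the second in every sample, stood at 4230 and 2621 in oncogenic cells, against 7422 and 5479 in normal cells. For each of them the groups did not overlap, oncogenic cells being lower.

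let-7i, the solitary gene on chromosome 10, had 2703 and 2256 normalized counts in oncogenic cells, against 1551 and 1500 in normal cells. let-7g, the solitary let-7 gene in Wdr82, went the other way, with 1234 and 779 in oncogenic cells, against 2457 and 1924 in normal cells. The groups did not overlap for either. Thus let-7i ranked 3 among the members in both oncogenic samples and 6 and 7 in the normal samples, while let-7g ranked 6 and 7 in oncogenic samples and 3 and 4 in normal samples.

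Of the chromosome 13 trio, let-7a had 2213 and 1848 normalized counts in oncogenic cells, against 1893 and 1850 in normal cells, so that the groups overlapped. let-7d had 1714 and 1534 in oncogenic cells, against 2130 and 2109 in normal cells. let-7f had 1019 and 914 in oncogenic cells, against 1238 and 1794 in normal cells. let-7d and let-7f were thus lower in both oncogenic samples, let-7d by more than the samples differed within either group and let-7f by less than the normal samples differed from each other.

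The rarest members were let-7e and miR-98. let-7e had 456 and 377 normalized counts in oncogenic cells, against 309 and 354 in normal cells, higher in both oncogenic samples by a margin smaller than the spread within either group. miR-98 had 149 and 129 in oncogenic cells, against 189 and 229 in normal cells. Even its 73 recovered counts in oncogenic replicate 2 lay well above the negative control probes, which averaged 2.67 counts there. In all, 6 members were lower, 2 higher and 1 overlapping, where 51.6% of all tested miRNAs did not overlap between the groups, 38.7% lower and 12.9% higher.

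In the order of mean levels, the ranges of several neighbours overlapped across samples, but the order within a sample can still be constant. In oncogenic cells the ranges of let-7c and let-7b overlapped, while let-7c was the higher in each sample (let-7b over let-7c 0.913 and 0.690). The ranges of let-7g and let-7f overlapped as well, and their order changed (let-7f over let-7g 0.826 and 1.17). The lower value of let-7i lay above the higher value of let-7a, and let-7a over let-7i was 0.819 in each sample. In normal cells let-7d lay within the range of let-7g, and let-7i within that of let-7f. Their order changed between the normal samples, with let-7d over let-7g at 0.867 and 1.10 and let-7f over let-7i at 0.798 and 1.20.

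**Figure D1:**
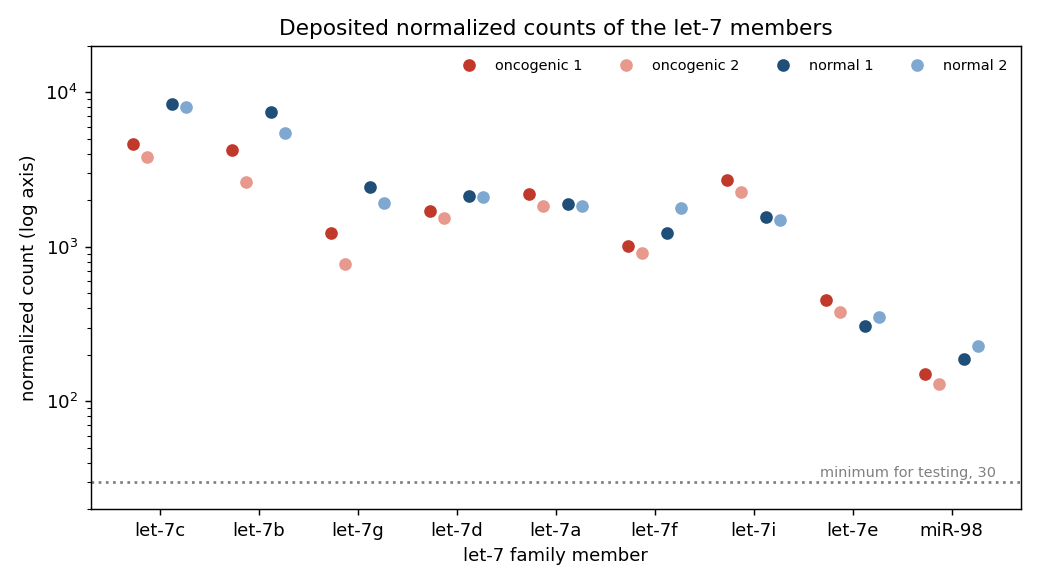
Deposited normalized counts (vertical log axis) of the 9 let-7 members (horizontal axis, by mean share in normal cells), 1 point per sample, red for the 2 oncogenic and blue for the 2 normal samples, with a dotted line at the testing minimum of 30. The points of let-7c, let-7b and let-7g are lower in oncogenic cells, those of let-7i are higher, and those of let-7a overlap.

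Within the family, signal in oncogenic cells was spread more evenly over the members. let-7i made up 14.7% of the summed let-7 signal (95% exact binomial interval 14.3 to 15.2) and 15.8% (15.04 to 16.6) in the oncogenic samples, against 6.05% (5.78 to 6.33) and 6.44% (6.15 to 6.74) in the normal samples. These intervals cover counting error only. The mean share of let-7i was 15.3% ± 0.78 in oncogenic and 6.24% ± 0.28 in normal cells (SD, n = 2 each), a 2.45-fold ratio and a difference of 9.03 percentage points.

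let-7a made up 12.1% (11.6 to 12.5) and 12.96% (12.2 to 13.7) in oncogenic cells, against 7.38% (7.08 to 7.68) and 7.94% (7.62 to 8.27) in normal cells. Its share thus differed by 4.85 points, although its level on the deposited scale overlapped between the groups. let-7e made up 2.48% and 2.64% in oncogenic cells, against 1.21% and 1.52% in normal cells, a 1.88-fold ratio of means. let-7d made up 9.34% and 10.8% in oncogenic cells, against 8.30% and 9.05% in normal cells, so that the groups were separated by less than the samples within either group.

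let-7c made up 25.2% (24.7 to 25.8) and 26.7% (25.7 to 27.6) in oncogenic cells, against 33.0% (32.5 to 33.5) and 34.6% (34.0 to 35.1) in normal cells, a mean difference of -7.84 points. let-7b made up 23.1% and 18.4% in oncogenic cells, against 28.9% and 23.5% in normal cells, and here oncogenic replicate 1 and normal replicate 2 lay close together. Together, let-7b and let-7c, a sum formed after their values were seen, held 48.3% and 45.04% in oncogenic cells, against 61.9% and 58.1% in normal cells.

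let-7g made up 6.73% and 5.46% in oncogenic cells, against 9.58% and 8.26% in normal cells. let-7f (5.56% and 6.41% in oncogenic, 4.82% and 7.70% in normal cells) and miR-98 (0.814% and 0.902% in oncogenic, 0.736% and 0.984% in normal cells) overlapped between the groups. Of the 9 shares 4 were thus higher, 3 lower and 2 overlapping. Of all tested miRNAs, divided by the same let-7 sum, 65.3% did not overlap between the groups, 39.5% higher and 25.8% lower, so the members' count of 7 lies near that background. The effective number of members, the exponential of Shannon's entropy of the shares, was 6.80 and 6.91 in oncogenic cells, against 5.77 and 6.14 in normal cells. With 2 samples a group the exact two-sided permutation test of a share cannot go below p = 0.333, the value for each of the 7 shares that did not overlap, while let-7f and miR-98 had p = 1.

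**Figure D2:**
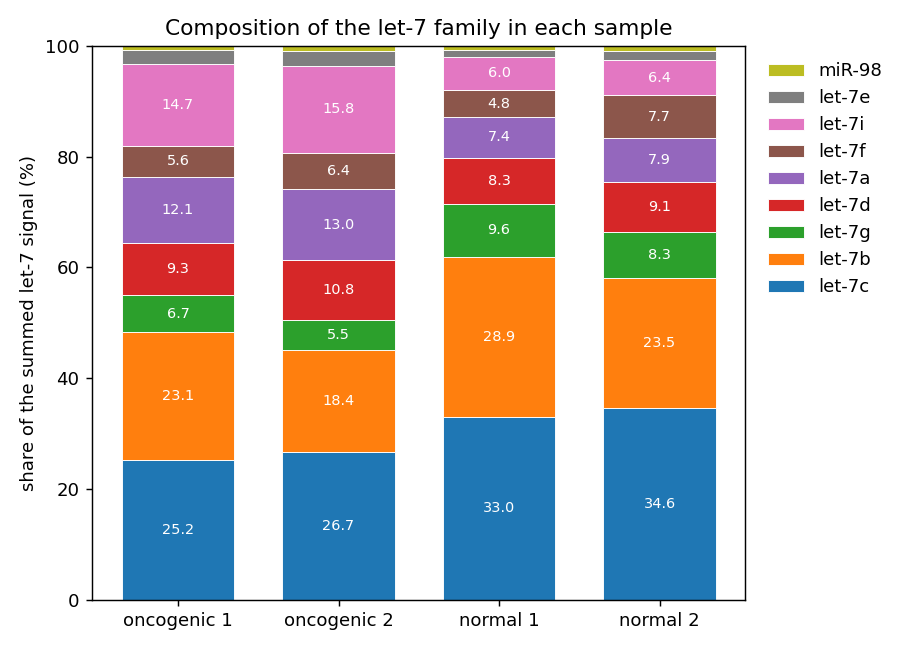
Share of the summed let-7 signal in percent (vertical axis) held by each of the 9 members in each sample (horizontal axis, oncogenic left), with shares above 4% printed in the bars. let-7i takes 14.7% and 15.8% of the oncogenic bars, against 6.05% and 6.44% of the normal bars, and let-7c and let-7b are narrower in the oncogenic bars.

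Relative to the family mean, let-7i rose in oncogenic cells. Each sample's log2(value + 1) was taken minus its mean over the 9 let-7 probes, which removes any scaling between samples, and all 124 tested miRNAs were fitted with limma with Benjamini-Hochberg adjustment. let-7i stood at 0.98 and 1.05 above the let-7 mean in oncogenic cells, and at -0.05 and -0.10 in normal cells. Its log2 difference was 1.09 (SE 0.17, 95% interval 0.63 to 1.55, adjusted p = 0.0461). It was the 1 member past the threshold of 0.05, where 6.45% of all tested miRNAs passed, 2.42% higher and 4.03% lower. The call is a narrow one. The difference stayed positive under all 19 alternatives, from 0.90 to 1.29, but passed under 9 of them and was lost when any 1 of the 4 samples was left out, with adjusted p of 0.0691 without oncogenic replicate 1, 0.0551 without oncogenic replicate 2, 0.446 without normal replicate 1 and 0.453 without normal replicate 2.

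let-7e, at -1.59 and -1.53 in oncogenic and -2.37 and -2.18 in normal cells, differed by 0.72 on the log2 scale (SE 0.22, adjusted p = 0.152) and did not pass. let-7a had a difference of 0.50 (SE 0.17, adjusted p = 0.180). On the other side, let-7g had a difference of -0.76 (SE 0.24, adjusted p = 0.152), let-7c one of -0.58 (SE 0.18, adjusted p = 0.152) and let-7b one of -0.55 (SE 0.26, adjusted p = 0.252). The signs of these 5 were the same under all 19 alternatives, but the value of let-7b was -0.32 without normal replicate 1, and its share difference of -5.51 points was -2.80 without that sample and -3.17 without oncogenic replicate 2. Their 95% intervals excluded 0 except for let-7b, from -1.23 to 0.14.

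let-7d had the difference nearest to 0, at 0.01 and an interval from -0.47 to 0.48, which covers changes of either sign. let-7f (-0.23, interval -0.91 to 0.44) and miR-98 (-0.19, interval -0.95 to 0.57) were likewise unresolved. At an unadjusted p under 0.05 there were 5 members, 3 higher and 2 lower, where 23.4% of all tested miRNAs passed, 10.5% higher and 12.9% lower. Because each sample's let-7 mean was subtracted, the members' differences average 0 in this fit by construction. Their median of -0.19, against 0.20 over all tested miRNAs, is thus no measure of a shift of the whole family. On the deposited scale 0 of the 9 members passed the adjusted threshold in limma (4.03% of all tested miRNAs did) and 3 had an unadjusted p under 0.05 (24.2% of all). edgeR on the recovered counts with the deposited factors also called 0 members, against 3.23% of all tested miRNAs. On that scale the log2 difference of let-7i was 0.69 in limma (SE 0.24, adjusted p = 0.178). Over 17 alternatives it ran from 0.29 with mRNA scaling to 1.23 with centring on the median, and passed in 2.

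**Figure D3:**
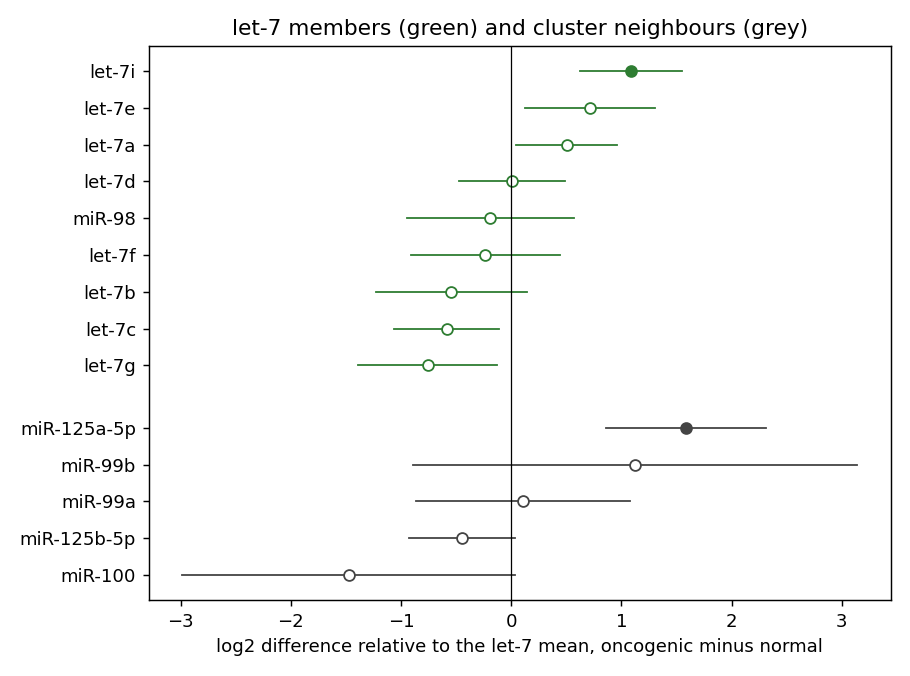
log2 difference relative to the mean of the let-7 probes, oncogenic minus normal (horizontal axis), for the 9 members (green) and 5 miRNAs of the same genomic clusters (grey), with 95% intervals from limma and filled points where the adjusted p is below 0.05. let-7i (1.09) and miR-125a-5p (1.59) are filled, and let-7g lies lowest of the members at -0.76.

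Ratios of members within a sample need no reference at all. let-7c exceeded let-7i by 1.71-fold and 1.68-fold in the oncogenic samples, against 5.46-fold and 5.37-fold in the normal samples. The gap between the groups was thus much larger than the spread within either, and the deeper oncogenic replicate 1 alone, at 1.71, lay nearly as far from the normal samples. The ratio of let-7g to let-7i, which moved most, was 0.457 and 0.345 in oncogenic cells, against 1.58 and 1.28 in normal cells, so that the order of these single-gene members was opposite in the groups.

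let-7a and let-7c differ by the single base A19G. Their ratio was 0.478 and 0.486 in oncogenic cells, against 0.224 and 0.230 in normal cells. let-7a and let-7f, separated by G12A, had ratios of 2.17 and 2.02 in oncogenic cells, against 1.53 and 1.03 in normal cells. let-7a and let-7e, separated by U9G, had ratios of 4.85 and 4.90 in oncogenic cells, against 6.12 and 5.23 in normal cells. let-7b and let-7c, which also differ by 1 base, had ratios of 0.913 and 0.690 in oncogenic cells, against 0.876 and 0.680 in normal cells. Of these 4 pairs 3 did not overlap between the groups, where 54.2% of all pairs of tested miRNAs did not, and let-7b with let-7c was the overlapping one.

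Ratios of members from a shared locus overlapped between the groups in some pairs and not in others. The ratio of the chromosome 15 pair overlapped between the groups, as given above for let-7b and let-7c, although let-7c has a further copy elsewhere. The X-linked pair of let-7f and miR-98 had ratios of 6.82 and 7.11 in oncogenic cells, within the 6.55 and 7.83 of normal cells, although let-7f has its other copy on chromosome 13. In the chromosome 13 trio, let-7a over let-7d was 1.29 and 1.20 in oncogenic cells, against 0.889 and 0.877 in normal cells. let-7d over let-7f was 1.68 and 1.68 in oncogenic cells, within the 1.72 and 1.18 of normal cells.

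Over all 36 pairs of members, 28 (77.8%) had ratios that did not overlap between the groups, against the same 54.2%, which rests on 7626 pairs of tested miRNAs. let-7i was higher against each of the 8 other members, let-7e against 7 and let-7a against 6. let-7g was lower against 6 and let-7c against 5. The median absolute log2 change of a ratio was 0.64 over the member pairs and 0.89 over all pairs. Pairs share members and samples, so these shares are descriptions. The pairs of all tested miRNAs were not matched to the members in level, and the part of counting noise in the 54.2% was not tested.

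**Figure D4:**
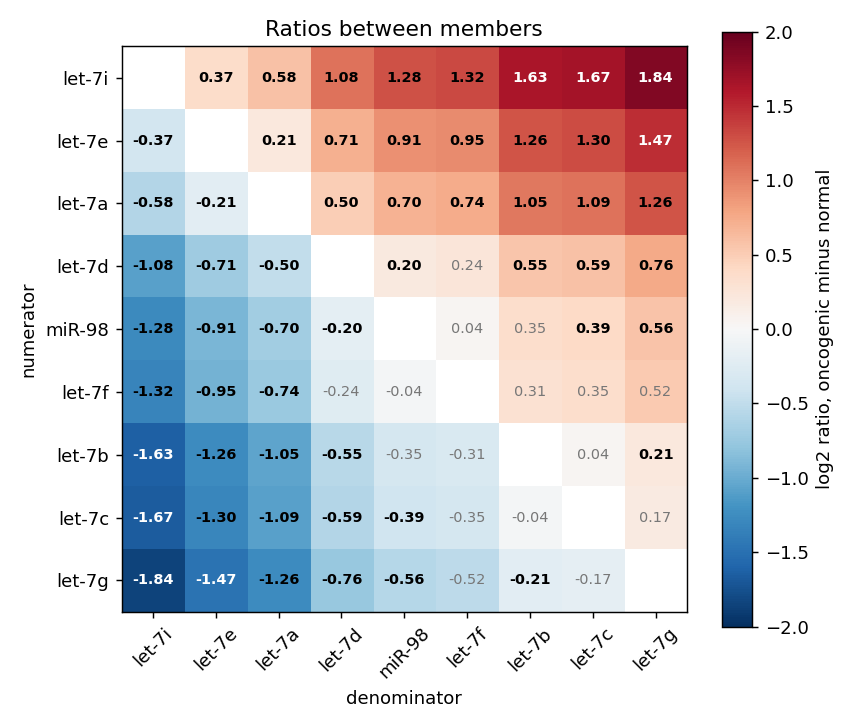
log2 change of the ratio of 2 members, oncogenic minus normal, with the numerator on the vertical and the denominator on the horizontal axis, ordered by the difference relative to the let-7 mean. Bold figures mark ratios that do not overlap between the groups, 28 of 36, and the largest is let-7i over let-7g in the upper right corner.

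The miRNAs made from the same clusters as let-7 members were set beside them. let-7e lies with miR-125a-5p and miR-99b, members of the miR-125 and miR-99 families, and of these miR-125a-5p rose relative to the let-7 mean. It had 763 and 805 normalized counts in oncogenic cells, against 394 and 297 in normal cells, which gave 1.59 as its log2 difference relative to the let-7 mean (SE 0.27, limma adjusted p = 0.0469). On the deposited scale its log2 difference was 1.19 and did not pass (limma adjusted p = 0.0998). miR-99b, at 114 and 255 in oncogenic and 60.6 and 172 in normal cells, overlapped between the groups and did not pass (log2 difference 1.12, SE 0.76, adjusted p = 0.374).

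miR-99a, beside the chromosome 16 copy of let-7c, had 252 and 345 normalized counts in oncogenic cells, against 311 and 415 in normal cells, and a difference of 0.11 relative to the let-7 mean (adjusted p = 0.838). miR-100, beside the chromosome 9 copy of let-7a, had 20.1 and 7.05 in oncogenic cells, both below the minimum of 30, against 34.3 and 62.9 in normal cells. miR-125b-5p, whose copies lie in both of these clusters, had 1256 and 1127 in oncogenic cells, against 2147 and 2108 in normal cells, and a difference of -0.45 relative to the let-7 mean (adjusted p = 0.236). Of the 5 cluster miRNAs 1 thus passed, higher, where 6.45% of all tested miRNAs passed, 2.42% higher. Their other arms on the panel, miR-125a-3p and miR-125b-3p, stayed between 4.31 and 28.2 in all samples.

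No probe for the other arm of a let-7 member was found among the panel's names. miR-1961, which has the same seed by RefSeq, stayed between 3.49 and 7.75 normalized counts, and miR-202-3p, whose seed is similar, between 9.66 and 24.1. Both lay within the range of the viral probes, which have no target in mouse cells, so the 9 members carried nearly all of the measured signal with this seed.

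The distance between 2 compositions was taken as 0.5 times the summed absolute differences of shares, in percentage points. For let-7 it was 5.94 between the oncogenic samples and 6.72 between the normal samples, and 13.7 to 21.0 between an oncogenic and a normal sample. All 4 distances between the groups thus exceeded both distances within them. Between group means the distance was 16.5, and 14.7 without oncogenic replicate 2. The miR-200 family, epithelial miRNAs with 5 probes, showed the same order, at 11.9 and 3.89 within and 13.7 to 21.4 between the groups. In the miR-30 family, also 5 probes, the distance within the groups (20.9 and 17.3) lay inside the range between them (11.4 to 32.2). Over the 115 other tested miRNAs the distances within groups, 39.2 and 32.8, also lay inside the range of 19.3 to 50.2 between groups. Between group means the distance was 16.1 for miR-30, 17.5 for miR-200 and 18.2 for the other tested miRNAs. The 16.5 of let-7 lay among these. The differences among these sets were not tested.

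**Figure D5:**
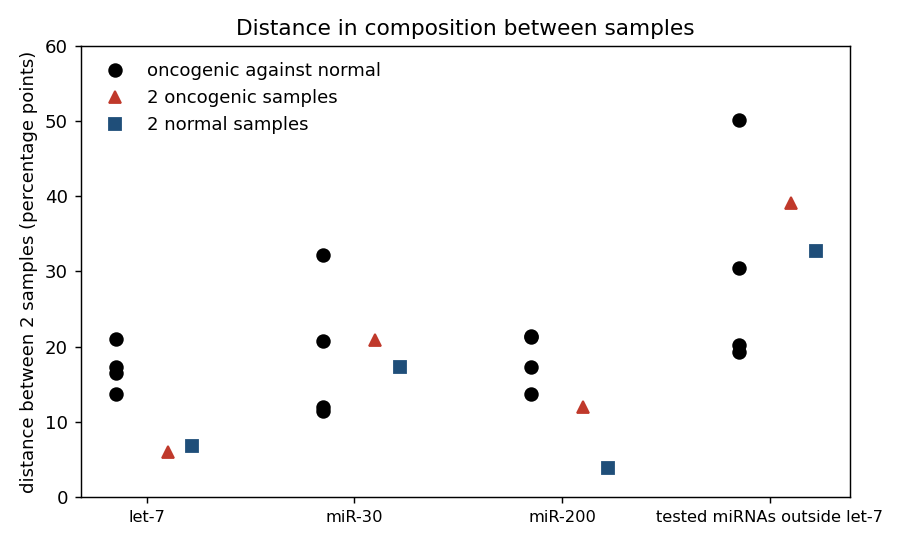
Distance in composition between 2 samples in percentage points (vertical axis) for let-7, the miR-30 and miR-200 families and the other tested miRNAs (horizontal axis). Black circles are an oncogenic against a normal sample, red triangles the 2 oncogenic samples and blue squares the 2 normal samples. For let-7 the circles, from 13.7 to 21.0, lie above the triangle at 5.94 and the square at 6.72.

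The share of the whole family in the signal of all miRNA probes depended on single samples and on which abundant probes entered the total. The summed let-7 signal on the deposited scale was 18351 and 14258 normalized counts in oncogenic cells, against 25658 and 23294 in normal cells. let-7 made up 9.12% and 15.1% of the signal of all miRNA probes in oncogenic cells, against 15.5% and 17.3% in normal cells (exact two-sided permutation p = 0.333, the smallest possible). The mean difference of -4.29 points was -1.32 without oncogenic replicate 1 and -7.27 without oncogenic replicate 2. The 5 most abundant other probes were miR-720, miR-205, miR-203, miR-23a and the probe shared by miR-1937a and miR-1937b. They were left out of the total, a choice made after seeing the data. The shares were then 30.7% and 30.5% in oncogenic cells, against 36.8% and 34.4% in normal cells. The oncogenic samples thus lay close together on this total, unlike on the total of all miRNA probes. With miR-205 alone left out, likewise chosen after seeing the data, the groups overlapped, at 10.5% and 19.9% in oncogenic cells, against 17.97% and 24.7% in normal cells (exact two-sided permutation p = 0.667). The log2 profile of the summed let-7 signal over the 4 samples was compared with those of the tested miRNAs outside the family. The 3 nearest were miR-148b (distance 0.26), miR-429 (0.29) and miR-125b-5p (0.29). Of these, miR-148b reached the minimum of 30 in the normal samples only, at 27.1 and 24.7 in oncogenic and 35.1 and 34.45 in normal cells.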

How the data were processed

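Per the labels' protocols, total RNA was assayed with the nanoString nCounter miRNA assay. The signal deposited by the authors is normalized by a method that the labels and file do not name (not given in the sources used here). By a test of their steps, miRNA, mRNA and viral probes are whole counts multiplied by 1 factor per sample (100% whole within 0.1 count; factors 0.874 and 1.76 in oncogenic, 0.878 and 0.861 in normal samples), so shares within a sample do not depend on it. The members and lists were chosen with earlier results of these data known.

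Shares with exact binomial (Clopper-Pearson) intervals, ratios and distances were computed in Python (version 3.11.15, SciPy 1.17.1). In R 4.3.3, limma (3.58.1) was fitted to log2(value + 1) of the 124 tested miRNAs, which reached 30 in 2 or more samples, using lmFit, then eBayes with trend, and two-sided p-values with a threshold of 0.05. The step was tested on simulated data with known changes and independent samples only. That test does not bear on how firm the call of let-7i is. edgeR (version 4.0.16) and DESeq2 (version 1.42.0) on recovered counts were alternatives, as were other references, scalings, filters and pseudocounts. Named miRNAs were all members, their cluster neighbours, miRNAs with a like seed, 2 families of comparison and the 3 nearest profiles. miR-1961 and the most abundant other probes were added after values were seen. Sequences and hairpins come from RefSeq (GRCm38.p6), where all 9 members matched.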

Additional observations from a re-analysis of the deposited data

How the results depend on the processing

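The 1 member called relative to the let-7 mean (let-7i) depended on the processing: 0 members passed with no filter, without the trend, with the median let-7 probe or with the mean without let-7b and let-7c as reference, with the negative control mean subtracted, with DESeq2, and without any 1 sample (0 in each), the causes of which were not tested. edgeR on the recovered counts with the summed let-7 counts as library size called 7 miRNAs (5.65% of those tested), among them 1 member, and DESeq2 called 12 (9.68%), among them 0 members and 1 at an unadjusted p under 0.05. Both alternatives chosen after seeing the data, edgeR with the geometric mean of the let-7 counts and a reference of the other 8 members, kept 1 call, let-7i (log2 differences 1.09 and 1.22). With the replicate block 6 members passed relative to the let-7 mean, where 41.1% of all tested miRNAs passed, and 3 on the deposited scale, where 24.2% did. Same-numbered samples deviated together from their group means (correlation 0.66 over the tested miRNAs and 0.82 over the 9 members), but 2 pairs and no label of a shared batch do not establish pairing. On the deposited scale the count of 0 was 1 (let-7i) after centring and likewise on scaling to the 100 most abundant miRNAs, and 0 to 3 without 1 sample, the 3 (let-7b, let-7c and let-7g, lower) being without oncogenic replicate 1. Some signs turned, none of a member past the threshold. Relative to the let-7 mean, let-7d was -0.000164 with a pseudocount of 30, -0.16 without let-7b and let-7c, -0.18 with the median and -0.0183 without miR-98 in the reference, and -0.0794 to 0.0904 without 1 sample. let-7f was -0.50 to 0.0309 without 1 sample, and miR-98 was 0.0135 with the summed signal as reference. On the deposited scale, let-7a was -0.30 with mRNA and -0.14 with positive control scaling and -0.0184 to 0.24 without 1 sample, let-7d was 0.15 with centring and 0.0139 on scaling to the 100 most abundant, and let-7e was -0.0841 with mRNA scaling. Subtracting the negative control mean left the distance between group means at 16.5 and the count of non-overlapping pairs at 28. Without 1 sample the distance ranged from 14.7 to 18.7 and the pairs from 29 to 35, where fewer samples make overlap rarer. Depth limited let-7e and miR-98 most, with 214 and 73 counts in oncogenic replicate 2.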

Other observations

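The 8 tested miRNAs past the threshold relative to the let-7 mean included miR-130a and miR-26b. On this reference miR-130a was higher in oncogenic cells (log2 difference 1.46, SE 0.24, limma adjusted p = 0.0461). miR-26b was lower (-1.60, SE 0.26, limma adjusted p = 0.0461). Both calls are as near the threshold as that of let-7i, and their results under the alternatives are not given here. On the deposited scale 0 tested miRNAs passed as higher in limma, so miR-130a did not pass there. The ratio of let-7b to let-7c was 0.913 in oncogenic replicate 1 and 0.876 in normal replicate 1, and 0.690 in oncogenic replicate 2 and 0.680 in normal replicate 2, so that it differed more between the replicate numbers than between the groups.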
